A study of Mus musculus with 6 samples.

Results

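The genes of the major histocompatibility complex (MHC) and of antigen presentation were followed in fetal livers of mice whose RNA editing enzyme ADAR1 carries the E861A mutation, set against wild-type livers. The members were all genes in the raw count table whose symbol starts with H2-, the mouse MHC, together with B2m, Tap1, Tap2, Tapbp, Tapbpl, Nlrc5, Ciita, Cd74 and Erap1. They came to 52 of 37576 gene IDs, of which 42 were H2- genes and 10 were IDs of the other 9 symbols (Ciita has 2). Of the 52, 45 lie on chromosome 17. Livers 6, 16 and 19 made up the E861A group, and these embryos were male and homozygous for the mutation (Adar1 E861A/E861A). Wild-type embryos gave liver 2, from a male, and livers 15 and 17, from females. All 6 embryos were C57BL/6 at embryonic day 12.5, and RNA came from suspensions of the whole liver, so each library mixes all liver cell types. In such bulk samples, fewer cells of a type and less RNA per cell cannot be told apart.

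MHC class I molecules display peptides from inside the cell to cytotoxic T cells and natural killer cells. Each consists of a heavy chain and the light chain beta-2 microglobulin. The proteasome cuts proteins to peptides, the transporter Tap1-Tap2 carries these into the endoplasmic reticulum, and tapasin (Tapbp) and its relative Tapbpl help to load them, while the aminopeptidase Erap1 trims their ends. MHC class II molecules display peptides from endosomes to helper T cells on macrophages, dendritic cells and B cells. Nlrc5 is known as the transactivator of class I genes and Ciita as that of class II genes, and class I genes are known targets of interferon. ADAR1 deaminates adenosines of double-stranded RNA, which are then read as G, and E861A is a mutation of its catalytic domain that removes editing.

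Reads counted in genes ranged from 35280460 to 43080042 in E861A and from 39192271 to 43733715 in wild type. The liver labels matched the reads, with Alb, the albumin gene, at 6150 to 8303 CPM in E861A and 5538 to 7178 CPM in wild type (CPM are reads per 1000000 after TMM scaling). E861A is a point mutation, so the level of Adar does not check the genotype labels. Nothing in the labels states separate litters, and p-values measure the spread between these 6 livers. Erythroid markers stood at a summed 15710 to 16432 CPM in E861A and 17972 to 46336 CPM in wild type. Of these markers, 3 of 10 were lower in E861A, against 4.26% of all genes tested. The part of cell composition in the results on the members was not tested.

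Members took 0.536%, 0.492% and 0.399% of reads in E861A 6, 16 and 19, against 0.0558%, 0.0645% and 0.0619% in wild type 2, 15 and 17. The shares of the 2 genotypes did not overlap. The summed level of all members was 4668 ± 813 CPM in E861A and 627.7 ± 115.2 CPM in wild type (SD, n = 3 each), a ratio of 7.44. Of the 52 members, 33 had enough reads to be tested with edgeR's quasi-likelihood test, in which a gene was called at a Benjamini-Hochberg adjusted p under 0.05 over all 16511 genes tested. In that test 22 members rose in E861A, none fell and 11 were not called. Among all genes tested, 7.77% rose, 4.26% fell and 12.0% changed in either direction. Every E861A library stood above every wild-type library for 24 of the 33 members tested, and for 19.4% of all genes tested. The median log2 fold change of the 33 was 2.44, and that of all genes tested was 0.04. The filter on reads leaves out members with few reads in both genotypes, so these shares do not describe all 52. Members with few reads in wild type, such as Nlrc5, H2-T10 and H2-Bl, passed it through their reads in E861A. Such members could be called only as rises, and they count in the shares and the median. Of the 19 members not tested, 8 had no read in any library and 5 had 1 to 10 reads in all.

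**Figure D1:**
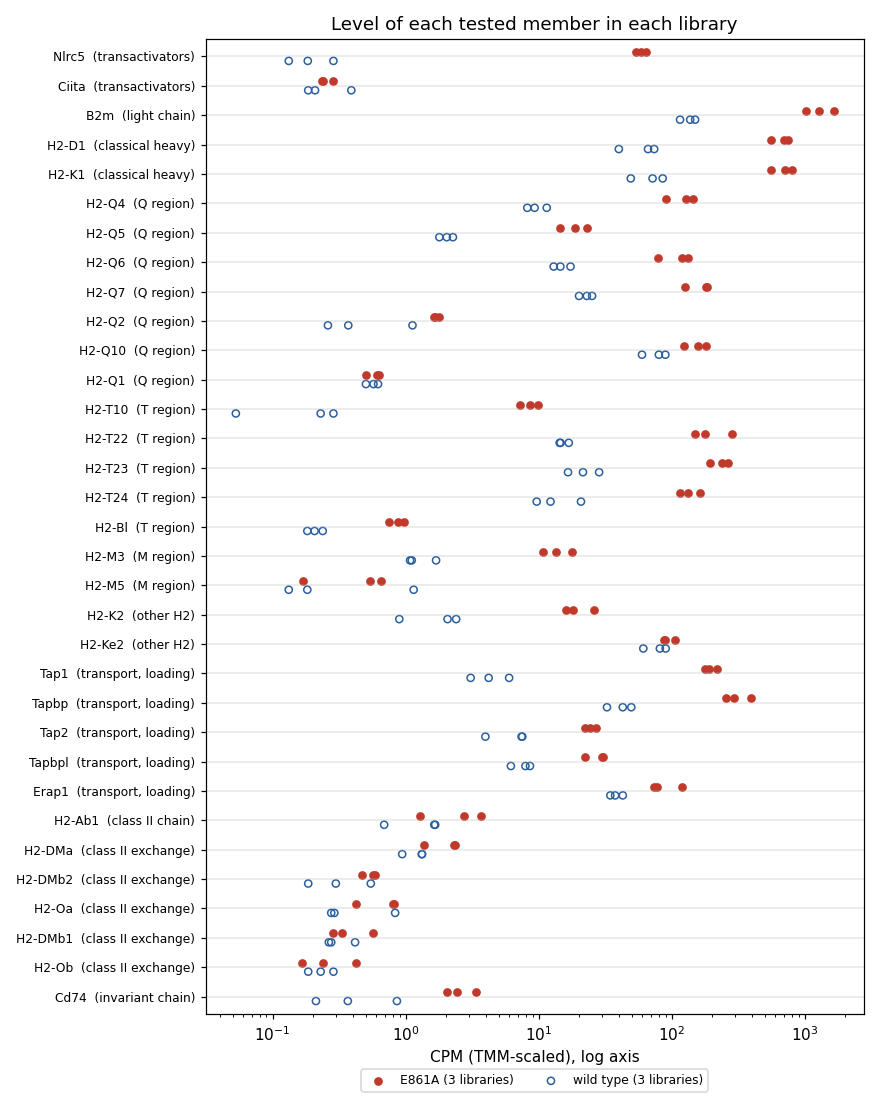
Level of each of the 33 tested members in each library, in TMM-scaled CPM on a log axis, with E861A libraries as filled and wild-type libraries as open circles, grouped by role. The groups stand apart for Nlrc5, B2m, H2-K1, H2-D1 and Tap1, and overlap for Ciita, H2-Q1, H2-M5, H2-Ke2 and 5 of the 6 tested class II genes other than Cd74.

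The largest rise among the members was in Nlrc5 (ENSMUSG00000074151, chromosome 8, 96996663 to 97051172 in NCBIM37), the class I transactivator, which the deposited table annotates as a long intergenic non-coding RNA. It had 2483, 2258 and 2482 reads in E861A 6, 16 and 19, against 8, 11 and 5 reads in wild type 2, 15 and 17. The wild-type livers were close to no reads, and the E861A livers lay within a narrow band. Its level was 58.9 ± 4.73 CPM in E861A and 0.201 ± 0.079 CPM in wild type (SD, n = 3 each). The log2 fold change was 8.17 (SE 0.26, edgeR adjusted p = 4.26e-06), which ranked 21 among the 16511 genes tested. The neighbouring non-coding gene 9330175E14Rik on the opposite strand, picked out after its values were seen, had 541, 265 and 319 reads in E861A against 3, 0 and 0 reads in wild type. The strand setting of the counting is not given in the sources used here, and these 2 genes do not overlap in position.

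Ciita, the class II transactivator, was not called. The Ciita ID with more reads had 10, 10 and 11 reads in E861A 6, 16 and 19, against 17, 8 and 7 reads in wild type 2, 15 and 17. The groups overlapped, and the log2 fold change was -0.06 (SE 0.44, edgeR adjusted p = 0.95), with a sign that turned in 2 of 13 alternative analyses. The second ID held 1 read in E861A and 1 read in wild type. At this depth a difference in Ciita could be called only if it were well above this SE, so smaller changes remain undetermined.

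B2m (ENSMUSG00000060802), which encodes the class I light chain, had the highest level per length of all members in both genotypes. It stood at 1648, 1271 and 1014 CPM in E861A 6, 16 and 19, against 115.6, 149.9 and 137.7 CPM in wild type 2, 15 and 17. The lowest E861A library was far above the highest wild-type library. Its log2 fold change was 3.29 (SE 0.23, edgeR adjusted p = 9.89e-05). None of the 50-base windows of its exons recurs elsewhere on its own chromosome. Other chromosomes were not searched.

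Both classical heavy chain genes rose by similar factors. H2-K1 (chromosome 17) stood at 709.6, 796.4 and 557.0 CPM in E861A 6, 16 and 19, against 49.3, 85.6 and 71.8 CPM in wild type 2, 15 and 17. Its log2 fold change was 3.32 (SE 0.26, edgeR adjusted p = 0.00017). H2-D1 stood at 696.4, 752.5 and 555.6 CPM in E861A, against 40.1, 73.8 and 66.4 CPM in wild type, a log2 fold change of 3.48 (SE 0.27, edgeR adjusted p = 0.000175). E861A 19 was the lowest of its group and wild type 2 the lowest of its group for both genes. Per kilobase of exon, B2m exceeded the sum of H2-K1 and H2-D1 by factors of 3.54, 2.48 and 2.75 in E861A 6, 16 and 19, against 3.91, 2.84 and 3.01 in wild type 2, 15 and 17. That ratio overlapped between the genotypes. The ratio of H2-D1 to H2-K1 per kilobase was 0.989, 0.952 and 1.01 in E861A, against 0.820, 0.869 and 0.932 in wild type.

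The non-classical heavy chains of the Q region lie beside H2-D1, and 5 of 7 tested rose. H2-Q4 had the largest rise among them, with 120.98 ± 27.5 CPM in E861A and 9.68 ± 1.67 CPM in wild type and a log2 fold change of 3.64 (SE 0.23, edgeR adjusted p = 5.84e-05). H2-Q5, which the deposited table annotates as a pseudogene, followed at 3.21 (SE 0.24) on the log2 scale. H2-Q6 rose by 2.88 (SE 0.23) and H2-Q7, which encodes a Qa-2 molecule, by 2.84 (SE 0.20). H2-Q10, which encodes a secreted class I molecule made in liver, stood at 156.8, 181.5 and 123.6 CPM in E861A 6, 16 and 19, against 59.8, 89.6 and 80.1 CPM in wild type 2, 15 and 17. The log2 fold change of 1.01 (SE 0.21, edgeR adjusted p = 0.0192) was the smallest of all called members. Per length, H2-Q10 stood at 35.4 ± 6.69 CPM per kb in E861A, below H2-Q4, H2-Q6 and H2-Q7, against 17.6 ± 3.50 CPM per kb in wild type (SD, n = 3 each), the highest mean of the Q region there. Those 3 genes stood at 45.3 ± 10.29, 50.9 ± 12.9 and 38.2 ± 7.60 CPM per kb in E861A, differences from H2-Q10 that are partly within the spread of libraries. Whether H2-Q10 changed less than its neighbours was not tested. The call on H2-Q10 was lost in male libraries alone and without E861A 6, E861A 16 or wild type 17.

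The uncalled Q region genes had few reads. H2-Q1 stood at 0.586 ± 0.068 CPM in E861A and 0.566 ± 0.059 CPM in wild type (SD, n = 3 each), and its log2 fold change was 0.05. H2-Q2 had 76, 58 and 76 reads in E861A 6, 16 and 19, against 49, 10 and 14 reads in wild type 2, 15 and 17. The genotypes did not overlap for H2-Q2, and its log2 fold change of 1.52 had an edgeR adjusted p of 0.111. Without wild type 2, the highest of its group, the value was 2.40 with an edgeR adjusted p of 0.0068. H2-Q3, also annotated as a pseudogene, had 7 reads in E861A and 5 in wild type and was not tested.

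In the T region all 5 tested heavy chain genes rose. The deposited table annotates 2 of them, H2-T10 and H2-Bl, as polymorphic pseudogenes. H2-T10 had the largest rise of any heavy chain gene, with 417, 306 and 330 reads in E861A 6, 16 and 19, against 10, 11 and 2 reads in wild type 2, 15 and 17. Its log2 fold change was 5.47 (SE 0.50, edgeR adjusted p = 0.000434). H2-T22, which like H2-T10 encodes a known ligand of some gamma delta T cells, stood at 282.2, 176.4 and 150.2 CPM in E861A, against 14.4, 16.8 and 14.6 CPM in wild type, a log2 fold change of 3.73 (SE 0.26). E861A 6 was well above the other E861A livers for H2-T22, while the wild-type livers lay close together. H2-T23, which encodes Qa-1, a ligand of the inhibitory receptor CD94-NKG2A on natural killer cells, stood at 232.8 ± 34.98 CPM in E861A and 22.2 ± 5.95 CPM in wild type (log2 fold change 3.39, SE 0.24). H2-T24 stood at 137.3 ± 24.8 CPM in E861A and 14.2 ± 5.83 CPM in wild type (log2 fold change 3.27, SE 0.31). H2-Bl had 41, 31 and 34 reads in E861A against 9, 7 and 9 reads in wild type, a log2 fold change of 2.03 (SE 0.35, edgeR adjusted p = 0.0107). Its call was lost in 5 of 13 alternative analyses.

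The M region lies farthest from the class II genes, and most of its genes were silent or near silent. Of 12 genes, 2 were tested. H2-M3, which presents peptides that begin with formyl-methionine, had 756, 475 and 497 reads in E861A 6, 16 and 19, against 47, 65 and 42 reads in wild type 2, 15 and 17. H2-M3 had a log2 fold change of 3.44 (SE 0.30, edgeR adjusted p = 0.000339), and the genotypes did not overlap. H2-M5 had 23, 6 and 30 reads in E861A, against 50, 7 and 5 reads in wild type. Wild type 2 alone was high for H2-M5, and the log2 fold change was -0.10 (SE 0.86, edgeR adjusted p = 0.96), against 1.51 without that liver (edgeR adjusted p = 0.145). H2-M2 had 5 reads in E861A and none in wild type.

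Summed over role classes, the classical heavy chains reached 1356 ± 222 CPM in E861A and 129.0 ± 36.0 CPM in wild type, a ratio of 10.51. The Q region genes reached 569.1 ± 115.6 CPM in E861A and 127.2 ± 17.9 CPM in wild type, a ratio of 4.48. The T region genes reached 582.5 ± 114.3 CPM in E861A and 52.2 ± 12.5 CPM in wild type, a ratio of 11.2 (SD, n = 3 each). The Q region thus had the lowest ratio of these 3 classes, and the T region a ratio close to that of the classical genes. H2-Q10 alone gave 76.5 of the 127.2 CPM of the Q region in wild type, and its ratio was 2.01. The ratios of H2-Q4, H2-Q5, H2-Q6 and H2-Q7 were 12.5, 9.25, 7.37 and 7.14. H2-Q1, H2-Q2 and H2-Q3, with few reads, had 1.04, 2.90 and 1.42. The low ratio of the sum thus does not describe each Q region gene. H2-K1 and H2-D1 took 50.9%, 55.8% and 54.8% of class I heavy chain CPM in E861A 6, 16 and 19, against 36.6%, 42.9% and 43.8% in wild type 2, 15 and 17. That total includes H2-Q10, at 153.9 CPM in E861A and 76.5 CPM in wild type. Whether the genotypes stay apart in this share without H2-Q10 was not tested. Heavy chain genes resemble each other, and whether reads are misassigned within or between these classes was not tested. Of the 50-base windows in the exons of H2-Q7, 65.1% recur elsewhere on chromosome 17, the only chromosome searched for these genes. The share was 40.4% for H2-Q5, 37.3% for H2-Q6, 36.2% for H2-T22, 34.97% for H2-T10, 31.4% for H2-T23, 28.8% for H2-Q4, 27.3% for H2-Q10, 16.97% for H2-K1 and 13.6% for H2-D1. How reads divide among these genes is uncertain, as is their split with genes that overlap in position, which cover 29.6% of the exon bases of H2-T22, 27.1% of H2-T10 and 18.6% of H2-Q4.

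H2-K2, a pseudogene beside H2-K1, also rose, with 771, 924 and 739 reads in E861A 6, 16 and 19, against 39, 92 and 78 reads in wild type 2, 15 and 17 (log2 fold change 3.50, SE 0.39, edgeR adjusted p = 0.00153). H2-Ke2, which despite its symbol encodes a prefoldin subunit and no antigen-presenting molecule, was not called. It stood at 93.8 ± 9.81 CPM in E861A and 77.6 ± 14.8 CPM in wild type (SD, n = 3 each), and its log2 fold change was 0.27 (SE 0.17, edgeR adjusted p = 0.366). H2-Ke2 lies between Tapbp and H2-K2 on chromosome 17, both of which rose. H2-Ke6 had 17 reads in E861A and 16 in wild type, and 85.4% of its exon bases are shared with the gene Gm20427.

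**Figure D2:**
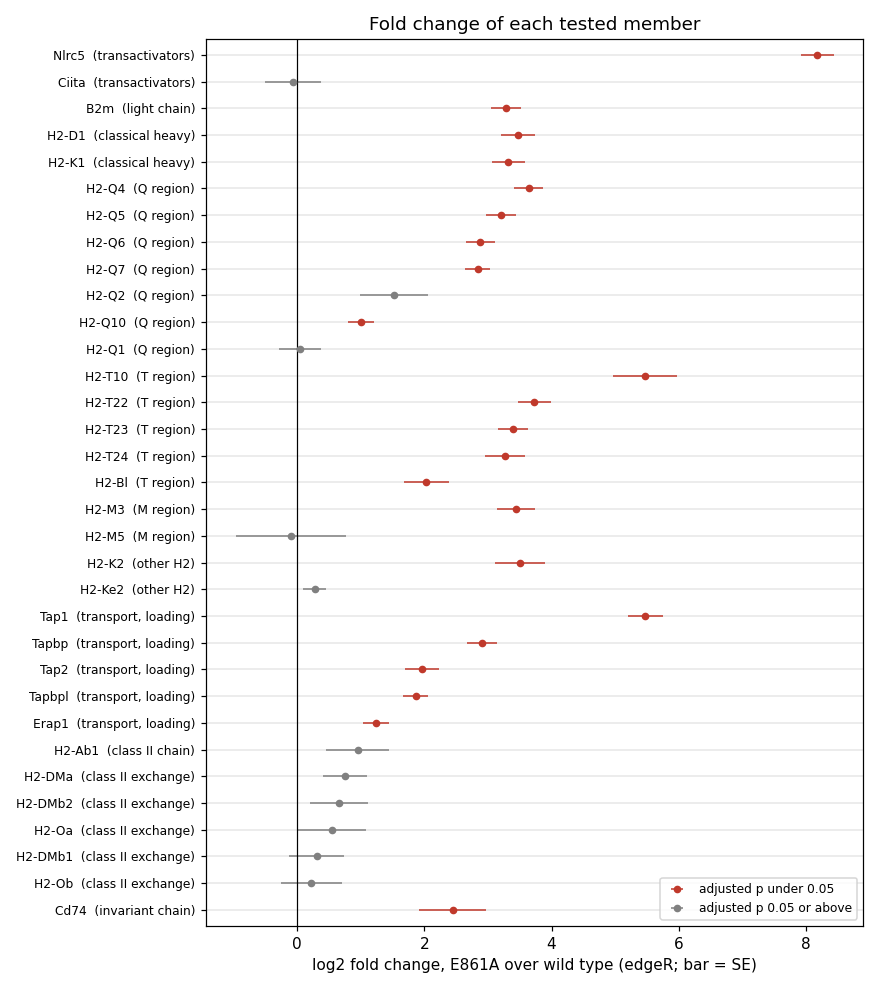
Log2 fold change of each of the 33 tested members, E861A over wild type from edgeR, with bars of 1 SE, grouped by role. Members with an adjusted p under 0.05 are red and lie at 1.01 or above, with Nlrc5 at 8.17 and Tap1 and H2-T10 both at 5.47.

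All 5 members of peptide transport and loading rose. Tap1, a subunit of the peptide transporter, had 8065, 7776 and 8150 reads in E861A 6, 16 and 19, against 134, 230 and 159 reads in wild type 2, 15 and 17. Its level was 196.1 ± 21.2 CPM in E861A and 4.43 ± 1.47 CPM in wild type (SD, n = 3 each), and the log2 fold change was 5.47 (SE 0.28, edgeR adjusted p = 1.8e-05). Tap2, the other subunit, rose less, with 24.5, 27.1 and 22.2 CPM in E861A, against 3.98, 7.53 and 7.44 CPM in wild type, a log2 fold change of 1.96 (SE 0.26, edgeR adjusted p = 0.00322). The transporter is a dimer of 1 copy of each subunit, but the transcripts did not stay in proportion. Per kilobase, Tap1 stood at 5.38, 5.59 and 5.54 times Tap2 in E861A, against 0.535, 0.550 and 0.391 times in wild type. By this measure, the subunit with the lower transcript level was Tap2 in each E861A liver and Tap1 in each wild-type liver. Exon lengths merge all annotated transcripts, 5476 bases for Tap1 and 3781 for Tap2, and which subunit is lower can depend on them. Both genotypes were divided by the same lengths, so the change in the ratio does not depend on this choice. Of Tap2's exon bases, 18.5% overlap genes on the opposite strand, and 3.87% of those of Tap1 overlap Psmb9.

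Tapbp, which encodes tapasin, stood at 393.7, 292.4 and 254.5 CPM in E861A 6, 16 and 19, against 32.6, 49.7 and 42.9 CPM in wild type 2, 15 and 17. Its log2 fold change was 2.91 (SE 0.24, edgeR adjusted p = 0.00023). Tapbpl rose by 1.86 on the log2 scale (SE 0.20, edgeR adjusted p = 0.00112), with 27.6 ± 4.69 CPM in E861A and 7.58 ± 1.25 CPM in wild type. Erap1 had the smallest rise of the loading genes, with 118.5, 78.0 and 74.2 CPM in E861A, against 34.6, 42.9 and 37.5 CPM in wild type. Its log2 fold change was 1.23 (SE 0.21, edgeR adjusted p = 0.0088), and the call was lost with sex as a covariate, in male libraries alone and without wild type 17.

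The steps before and around loading were followed through gene lists outside the members. In the immunoproteasome and its activator, all 4 tested genes rose, with a median log2 fold change of 2.13 against 0.04 for all genes tested. Psmb8, a catalytic subunit that replaces a standard one, stood at 52.0 ± 13.0 CPM in E861A and 3.23 ± 1.11 CPM in wild type (log2 fold change 4.01, SE 0.31). The activator subunit genes rose too, Psme1 with 296.6 ± 53.5 CPM in E861A and 74.05 ± 6.76 CPM in wild type, and Psme2 with 217.9 ± 58.9 CPM in E861A and 70.1 ± 7.15 CPM in wild type (SD, n = 3 each). Psmb9, another catalytic subunit, is listed at 0 reads in every library under both of its IDs, whose exons cover each other almost entirely, so its level was not measured here. A further list centred on peptide loading chaperones of the endoplasmic reticulum held Calr, Canx, Pdia3, P4hb and Hspa5, with Sec61a1, Sec61b and the peptidase gene Lnpep. Of these 8 none was called, a share that is near the 12.0% of all genes tested, and their median was 0.18. Hspa5, P4hb and Pdia3 had each E861A liver above each wild-type liver, with log2 fold changes of 0.58 (SE 0.18), 0.45 (SE 0.17) and 0.30 (SE 0.15).

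In the list of factors at MHC promoters and the signalling that activates them, which includes both chains of the interferon gamma receptor, 6 of 17 rose and none fell, with a median of 0.45. Ifngr2, a receptor chain, was among the 6 (0.68, SE 0.15). Stat2 stood at 330.3 ± 40.9 CPM in E861A and 30.04 ± 2.61 CPM in wild type (log2 fold change 3.46, SE 0.17), and Irf1 rose by 2.96 (SE 0.18). Both are transcription factors of interferon signalling. The RFX subunits, with which both Nlrc5 and Ciita are known to act, were not called. Rfx5 stood at 11.6 ± 2.85 CPM in E861A and 8.51 ± 1.14 CPM in wild type, Rfxap at 20.2 ± 1.42 CPM in E861A and 20.3 ± 0.34 CPM in wild type, and Rfxank at 12.5 ± 1.49 CPM in E861A and 11.5 ± 1.05 CPM in wild type (SD, n = 3 each). Of the co-stimulatory and inhibitory ligands, 4 of 7 rose and none fell. Cd274, which encodes the inhibitory ligand PD-L1, stood at 52.9 ± 9.73 CPM in E861A and 3.001 ± 0.80 CPM in wild type (log2 fold change 4.14, SE 0.25), Icam1 rose by 1.95 (SE 0.20) and Icosl by 0.94 (SE 0.18). Class I related molecules encoded outside the H2 complex had 1 of 5 higher, the Fc receptor gene Fcgrt at 31.4 ± 2.71 CPM in E861A and 21.3 ± 0.70 CPM in wild type. Among all genes tested 7.77% rose, a share that 1 of 5 does not stand clear of. None of the 3 tested ligands of the receptor NKG2D was called, with a median of 0.06. Over the 7 pathway lists 18 genes rose, against 10 in male libraries alone.

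**Figure D3:**
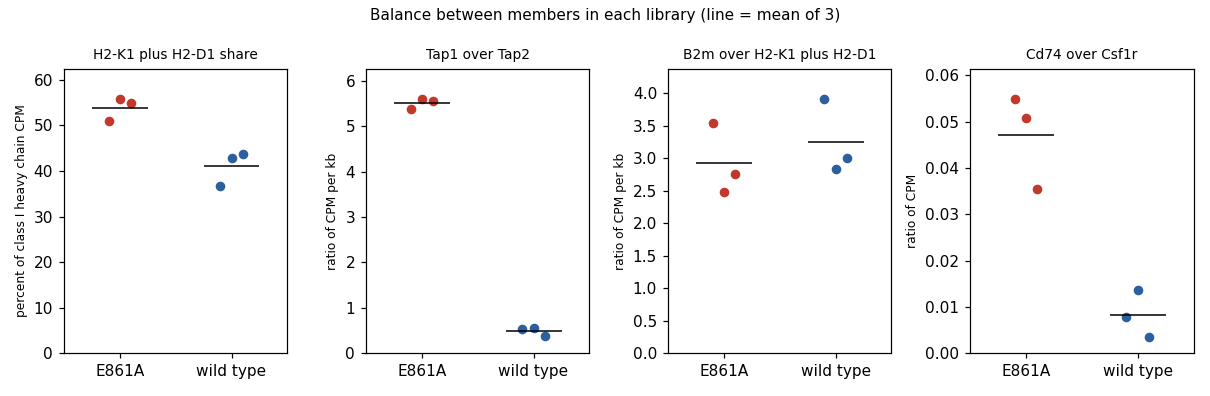
Balance between members in each library, with a point per library and a line at the mean of 3, E861A left of wild type. Panels show the H2-K1 plus H2-D1 share of class I heavy chain CPM, the ratios of Tap1 to Tap2 and of B2m to H2-K1 plus H2-D1 per kilobase, and the ratio of Cd74 to Csf1r CPM. The genotypes stand apart except for B2m over H2-K1 plus H2-D1. The class I heavy chain CPM include H2-Q10, and the share without it was not tested.

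The class II genes had low levels, and 1 of 7 tested was called, a share near the 12.0% of all genes tested that changed. Whether their response differed from that of class I was not tested. The 5 class II chain genes summed to 2.89 ± 1.20 CPM in E861A and 1.54 ± 0.58 CPM in wild type (SD, n = 3 each). H2-Ab1, the beta chain of I-A, was the only chain gene with enough reads to test. It had 54, 131 and 126 reads in E861A 6, 16 and 19, against 30, 63 and 63 reads in wild type 2, 15 and 17. The groups overlapped in CPM, and the log2 fold change was 0.95 (SE 0.49, edgeR adjusted p = 0.262). H2-Aa, its alpha chain partner, had 15 reads in E861A and 7 in wild type, and H2-Eb1 had 22 reads in E861A and 15 in wild type. C57BL/6 mice are known to lack the I-E alpha chain, and its gene, listed as the pseudogene H2-Ea-ps, had no read.

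The genes of class II peptide exchange were not called either. H2-DMa, a subunit of the exchange catalyst DM, had 58, 84 and 105 reads in E861A 6, 16 and 19, against 41, 51 and 50 reads in wild type 2, 15 and 17. In CPM the genotypes did not overlap, and the log2 fold change was 0.75 (SE 0.35, edgeR adjusted p = 0.208). The beta subunits H2-DMb1 and H2-DMb2 had log2 fold changes of 0.31 (SE 0.43) and 0.66 (SE 0.46). Of their 50-base exon windows, 28.2% for H2-DMb1 and 31.3% for H2-DMb2 recur elsewhere on chromosome 17, so the assignment of their reads is uncertain. H2-Oa and H2-Ob, which form the DM inhibitor DO, had values of 0.55 (SE 0.53) and 0.22 (SE 0.48). E861A 6 was the lowest E861A library for 6 of the 7 tested class II genes, Cd74 included. All 5 exchange genes had fitted values above 0, and none passed the test.

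Cd74, which encodes the invariant chain that escorts class II molecules, was the only class II member to be called. It had 87, 120 and 111 reads in E861A 6, 16 and 19, against 16, 33 and 8 reads in wild type 2, 15 and 17. The lowest E861A liver was above the highest wild-type liver, and the log2 fold change was 2.44 (SE 0.53, edgeR adjusted p = 0.0234). The call was lost in 6 of 14 alternative analyses, among them those with sex as a covariate (2.82, edgeR adjusted p = 0.144), in male libraries alone and without any 1 of the E861A livers, while the fold change stayed between 2.09 and 3.16. Csf1r, a macrophage receptor gene, stood at 37.5, 66.7 and 68.6 CPM in E861A, against 46.9, 62.6 and 60.3 CPM in wild type. The ratio of Cd74 to Csf1r CPM was 0.0549, 0.0508 and 0.0354 in E861A 6, 16 and 19, against 0.00785, 0.0137 and 0.00351 in wild type 2, 15 and 17. Cd74 was thus higher relative to Csf1r in each E861A liver. Csf1r is 1 of 14 macrophage and monocyte markers followed here, and ratios to the others were not formed. Of that list, Ly6c2 had a log2 fold change of 5.04, above that of Cd74, and Emr1 one of -0.89. The ratio thus depends on the marker chosen, and whether the number of such cells differed was not tested.

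**Figure D4:**
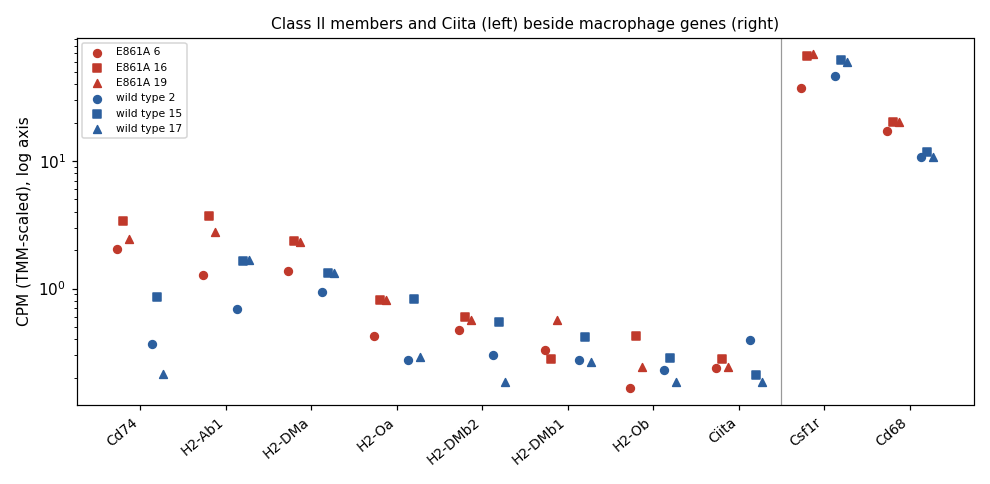
CPM of the class II members and Ciita, and of the macrophage genes Csf1r and Cd68, in each library on a log axis, E861A left of wild type and a marker shape per library. Cd74 stands apart between the genotypes, the other class II members except H2-DMa overlap, and E861A 6 is lowest of its group for Csf1r.

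Markers of the cells that carry class II moved in both directions. The counts in these lists are to be read beside all genes tested, of which 7.77% rose and 4.26% fell. Of 14 macrophage and monocyte markers, 2 rose and 1 fell, with a median log2 fold change of -0.11 and a summed level of 329.9 to 470.7 CPM in E861A and 344.8 to 403.4 CPM in wild type. The markers that rose were Ly6c2, a surface protein of monocytes (5.04, SE 0.26), and Cd68, and the one that fell was Emr1. Marco and Mrc1, macrophage receptor genes, were lower in level in each E861A liver than in each wild-type liver and were not called. Marco stood at 4.54 ± 4.36 CPM in E861A and 26.6 ± 10.16 CPM in wild type (SD, n = 3 each, edgeR adjusted p = 0.0524). Of 8 tested dendritic cell markers only Irf4 changed and fell, and the list summed to 39.4 to 53.4 CPM in E861A and 46.3 to 61.4 CPM in wild type, most of it from Zbtb46 (28.4 ± 2.62 CPM in E861A and 41.2 ± 5.83 CPM in wild type). Not tested were Siglech, with 2 reads in E861A and 28 in wild type, and Cd209a, with 0 in E861A and 13 in wild type. Of 9 B lineage IDs 3 were tested and none called, with 5.27 to 6.96 CPM in E861A and 3.79 to 4.98 CPM in wild type in sum, ranges that do not overlap. Ms4a1, a marker that defines B cells, had 3 reads in E861A and 7 in wild type. The T and NK cell list summed to at most 2.03 CPM in E861A and 2.45 CPM in wild type, with 1 read of Cd3e in E861A and none in wild type. In the list of class II processing and trafficking, 3 of 10 rose and 2 fell. Ctss, a protease that cleaves the invariant chain, stood at 40.7 ± 3.79 CPM in E861A and 14.8 ± 0.49 CPM in wild type (log2 fold change 1.45, SE 0.14). Cd63 rose by 0.85 (SE 0.13) and Ctsl by 1.04 (SE 0.17) on the log2 scale. March8 and Ap1b1 fell, with March8, which encodes a ubiquitin ligase of membrane proteins, at a log2 fold change of -1.27 (SE 0.20). Hepatoblast markers had 5 of 10 higher and endothelial markers 3 of 8 higher and 1 lower. None of 8 mesenchymal markers was called. Over all marker lists 10 genes rose and 6 fell, against 1 and 0 with sex as a covariate. The part of these cell types in the members' values was not tested.

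Within E861A the livers differed among themselves. E861A 19 was the lowest for 21 of the 22 called members, and E861A 6 the highest for 11 of them. Wild type 2 was the lowest wild-type liver for 16 of the 22. Relative to the mean, Nlrc5, Tap1 and Tap2 varied least of the called members between E861A livers, with SDs of 4.73 CPM on 58.9, 21.2 CPM on 196.1 and 2.45 CPM on 24.6.

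Promoter windows, which run from 250 bases before to 50 after the start site in GRCm38.p6, were given by RefSeq for 35 of the 51 member symbols. They are shown because the called members moved together and interferon-responsive genes are known to carry a response element with the core GAAANNGAA or, offset along the same element, AANNGAAAC (N is any base, both strands were searched, and the forms may overlap). The stretches below run 5′ to 3′ on the strand that holds AANNGAAAC, and the capitals mark its 9 bases. Around the match the classical and Q region genes have nearly the same letters, while those of H2-M3, H2-T22 and H2-T3 resemble them mainly within it. The heavy chain genes H2-M2 and H2-M10.1, not tested for few reads, also match the motif, with other letters at its N positions, and are not printed.
H2-K1 (chr17:34000418-34000450, plus strand): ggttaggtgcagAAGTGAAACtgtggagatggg
H2-D1 (chr17:35262931-35262963, minus strand): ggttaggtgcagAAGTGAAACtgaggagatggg
H2-Q4 (chr17:35379451-35379483, minus strand): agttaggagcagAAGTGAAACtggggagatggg
H2-Q6 (chr17:35424685-35424717, minus strand): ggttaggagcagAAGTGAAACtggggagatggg
H2-Q7 (chr17:35439029-35439061, minus strand): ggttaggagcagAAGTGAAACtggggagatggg
H2-Q10 (chr17:35469921-35469953, minus strand): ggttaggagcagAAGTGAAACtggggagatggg
H2-M3 (chr17:37270120-37270152, minus strand): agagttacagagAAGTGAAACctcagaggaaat
H2-T22 (chr17:36042914-36042946, plus strand): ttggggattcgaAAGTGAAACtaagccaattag
H2-T3 (chr17:36190258-36190290, plus strand): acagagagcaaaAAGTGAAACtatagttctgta

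The stretch of 33 bases was identical in H2-Q6, H2-Q7 and H2-Q10, whose log2 fold changes were 2.88, 2.84 and 1.01. H2-T3 carries the same 9 capital letters and had 7 reads in E861A and 3 in wild type. Of the 13 called members with a window, 8 held AANNGAAAC, and 4, namely B2m, Erap1, H2-T22 and H2-T23, held GAAANNGAA. Either form was present in 11 of the 13 called members and in 6 of the 22 members that were not called or not tested, against 12.8% of all 32851 windows. A member counts if any of its windows holds a form, while the 12.8% is a share of single windows, so the units differ. The heavy chain genes also resemble each other and are not separate cases. GAAANNGAA was the main motif searched and AANNGAAAC an alternative to it. The main motif alone was in 4 of the 13 called members and in 0 of the 22 others. The counts for either form thus rest largely on the alternative, and the difference between the member groups was not tested. Taken singly, AANNGAAAC was in 5.77% and GAAANNGAA in 8.56% of all windows. The gamma-activated site TTCNNNGAA was in the windows of H2-M3, H2-DMb2 and H2-M11 and in 8.30% of all. A match is a description of letters and shows no binding.

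The windows of H2-K1, B2m and Tap1 are given whole, on the strand of each gene, as those of a heavy chain, the light chain and the transporter. Capitals mark a response element match, which in H2-K1 reads in reverse complement.
H2-K1 (chr17:34000284-34000583, minus strand): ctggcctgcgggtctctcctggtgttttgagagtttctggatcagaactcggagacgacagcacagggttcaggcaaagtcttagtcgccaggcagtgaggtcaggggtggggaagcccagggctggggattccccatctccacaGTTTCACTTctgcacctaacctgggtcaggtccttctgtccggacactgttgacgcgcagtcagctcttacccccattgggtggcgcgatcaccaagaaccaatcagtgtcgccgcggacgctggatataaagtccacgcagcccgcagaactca
B2m (chr2:122147437-122147736, plus strand): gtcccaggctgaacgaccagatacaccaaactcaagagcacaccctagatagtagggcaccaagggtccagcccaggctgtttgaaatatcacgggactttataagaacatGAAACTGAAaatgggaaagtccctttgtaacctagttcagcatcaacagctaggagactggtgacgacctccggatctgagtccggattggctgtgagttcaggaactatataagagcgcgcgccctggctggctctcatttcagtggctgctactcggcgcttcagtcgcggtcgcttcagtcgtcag
Tap1 (chr17:34187306-34187605, plus strand): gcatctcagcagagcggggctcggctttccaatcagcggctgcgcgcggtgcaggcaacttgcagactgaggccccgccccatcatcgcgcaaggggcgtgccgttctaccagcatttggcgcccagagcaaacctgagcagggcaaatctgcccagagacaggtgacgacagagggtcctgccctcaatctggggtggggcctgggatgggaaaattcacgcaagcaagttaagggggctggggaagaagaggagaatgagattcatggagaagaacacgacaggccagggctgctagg

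The Tap1 window holds none of the 3 motifs, although Tap1 had the second largest fold change of the members. Of its 300 bases, 275 are also in the window of Psmb9, which runs on the opposite strand.

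Editing sites were examined in member genes as a second readout. Inside member genes the site table listed 2 sites in the 3′ UTR of H2-T24 and 2 in introns of Erap1, both of the latter with too few reads to test. The H2-T24 sites lie at positions 36143386 and 36143526 of chromosome 17 (NCBIM37), and each is shown on the minus strand of the gene with the edited A in capitals.
H2-T24 site 36143386 (chr17:36143372-36143400, minus strand): agaacggtgctcttAagcactgagccatc
H2-T24 site 36143526 (chr17:36143512-36143540, minus strand): tttaagatttatttAtttatctactatat

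At the first of these, 0 of 454, 0 of 245 and 0 of 322 reads were edited in E861A 6, 16 and 19, against 2 of 34, 6 of 47 and 8 of 32 reads in wild type 2, 15 and 17. Editing was thus seen in each wild-type liver and in no E861A liver. In sum it was 0 of 1021 reads in E861A, which allows a level of up to 0.294%, against 14.2% in wild type (Wilson 95% interval 8.91% to 21.8%), with a Fisher's exact adjusted p of 1.52e-15. At the other site, 2 of 332 reads (0.602%, interval 0.165% to 2.17%) were edited in E861A, against 5 of 56 reads (8.93%, interval 3.87% to 19.3%) in wild type, with a Fisher's exact adjusted p of 0.00718. Both tested member sites were lower in E861A, as were 16.7% of the 3883 sites tested over all genes. These tests pool reads over livers, and intervals cover counting error only. The rise of H2-T24 gave more covering reads in E861A than in wild type at both sites.

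The 45 members on chromosome 17 lie between positions 34052844 and 37620497 (NCBIM37), where 284 other genes are interspersed. Of the 113 of these that were tested, 22 rose (19.5%, against 7.77% of all genes tested) and 3 fell, with a median log2 fold change of 0.28. Some of the 22 passed the read filter only through E861A and so could be called only as rises. Examples are Gm8696, with 222 reads in E861A and 0 in wild type, and Btnl5, with 80 in E861A and 1 in wild type. Of the members there, 17 of 27 tested rose. The neighbours named here were chosen after their values were seen. The complement genes C2 and C4b stood at 23.7 ± 4.87 and 16.6 ± 8.41 CPM in E861A, against 2.57 ± 0.47 and 1.27 ± 0.54 CPM in wild type (SD, n = 3 each). The cytokine gene Tnf stood at 3.62 ± 0.19 CPM in E861A and 0.70 ± 0.25 CPM in wild type. Trim26 rose by 1.99 on the log2 scale (SE 0.16), and Trim10, Tcf19 and Mdc1 fell.

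**Figure D5:**
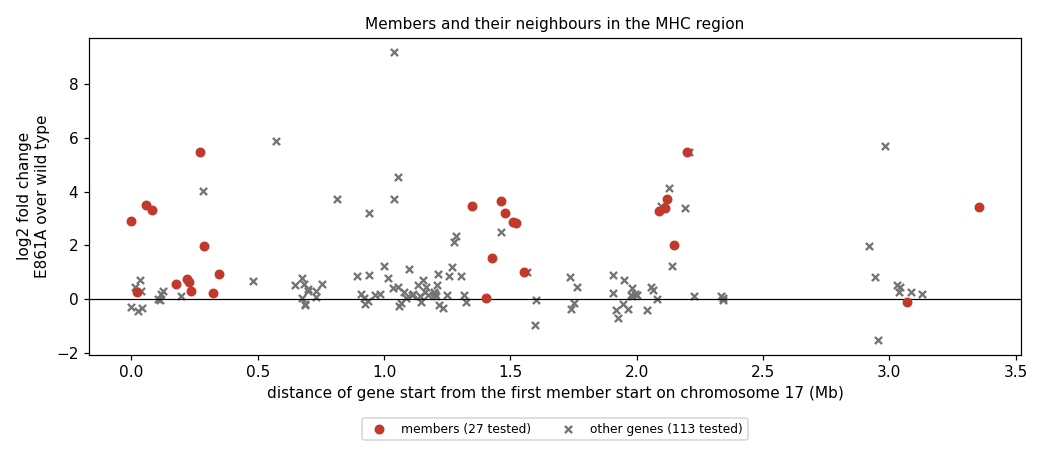
Log2 fold change of tested genes, E861A over wild type, against the distance of the gene start from the first member start on chromosome 17 in Mb, with members as red circles and other genes as grey crosses. Members with large rises occur at several separate places, and most of the 113 neighbours lie near 0, with a median of 0.28.

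In the authors' deposited table, which lists 25 of the members, 21 were called, each higher in E861A. All 21 were among the 22 called here, the remaining one being H2-Bl.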

How the data were processed

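Livers of 6 embryos were sequenced as RNA libraries per the labels. Per the submitters' processing notes, Trimmomatic, TopHat2, Bowtie2, HTSeq, Cufflinks, SAMtools, BWA, edgeR and limma were used with mm9 and NCBIM37, with no role given. Raw counts per Ensembl gene are whole numbers of reads, deposited by the authors. The site table holds covering read counts and editing levels as a fraction, per the file headers. The authors' deposited table of comparisons gives log2 fold changes as wild type minus mutant, whose sign was turned here, and adjusted p-values. Strandedness and the counting settings are not given in the sources used here.

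Counts were tested with edgeR 4.0.16 (filterByExpr, TMM, robust quasi-likelihood F test, Benjamini-Hochberg) in R 4.3.3, and checked on simulated data. SE was derived from the fold change and its F statistic. CPM use TMM-scaled totals, and CPM per kb divide by exon length in GENCODE M1, which matched all 52 members. Edited reads are the level times the coverage. Sites with at least 10 reads per genotype were compared by two-sided Fisher's exact tests on summed reads (SciPy 1.17.1), adjusted over all sites. An undetected level is given as that of 3 reads. Promoters are from RefSeq (GRCm38.p6). Alternatives were other scalings, filters, DESeq2 1.42.0, limma-voom 3.58.1, sex as a covariate, male libraries alone and leaving out each library. Named were all called members, members of known central role and the 3 list genes with the smallest p, of which some genes are not reported here. Members, lists and tests were chosen with earlier results of these data known.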

Additional observations from a re-analysis of the deposited data

How the results depend on the processing

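No paired analysis was possible because no number is common to both genotypes and litters are not labelled. The count of 22 members higher in E861A stayed within 1.5 times under each of the 14 alternatives, with 18 to 22 of the same members called, and no member was called lower in any. Of the called members, 18 kept their call in each alternative that tested them, and Erap1, Cd74, H2-Q10 and H2-Bl did not. Uncalled members whose sign turned were H2-DMb1 (log2 fold change -0.068 to 0.54 when a library was left out), H2-Ob (-0.27 to 0.49), H2-M5 (-0.53 to 1.51, and 0.35 with limma-voom), H2-Q1 (-0.034 to 0.11, -0.081 with sex as a covariate and -0.072 in male libraries) and Ciita (-0.25 to 0.34, and 0.00465 with limma-voom). H2-Q2 was called only without wild type replicate 2. Over all genes, 1283 rises became 530 with sex as a covariate and 301 in male libraries alone, and 515 to 1737 when a library was left out. The 703 falls became 1160 with a filter of 1 CPM, 39 with sex as a covariate, 8 in male libraries, 1538 with DESeq2, and 95 to 1502 when a library was left out. In the pathway lists, 18 rises became 10 in male libraries, and 2 falls became 4 with the filter of 1 CPM, 0 with sex as a covariate, 0 in male libraries, 5 with DESeq2 and 1 to 4 when a library was left out. The cause of these shifts was not tested. The member promoters holding the response element numbered 4 with GAAANNGAA and 14 with AANNGAAAC. Both member editing sites stayed lower at minima of 5 and 20 reads. Depth limits the class II genes and Ciita, most of them under 1 CPM.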

Other observations

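Among the other genes between the first and the last H2 gene on chromosome 17, the heat shock genes Hspa1a and Hspa1b, which encode inducible chaperones, were higher in E861A. Hspa1a stood at 171.8 ± 75.2 CPM in E861A and 7.40 ± 5.74 CPM in wild type, and Hspa1b at 391.1 ± 171.9 CPM in E861A and 29.9 ± 26.9 CPM in wild type (SD, n = 3 each). The edgeR adjusted p was 0.0080 for Hspa1a and 0.0365 for Hspa1b.

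Near the T region heavy chain genes, 4 genes with few reads were also higher. Gm6034 had 96 reads in E861A and 5 in wild type, Gm17579 had 60 in E861A and 5 in wild type, the pseudogene C920025E04Rik had 99 in E861A and 9 in wild type, and Gm19684 had 63 in E861A and 1 in wild type. These genes were picked out after their values were seen, and each passed the read filter through its reads in E861A. Gm17579 lies within the span of H2-T24 on the opposite strand, and Gm6034 and Gm19684 start close to H2-T22 and H2-T10. Strandedness is not given, and whether their reads come from transcripts of these members was not tested.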
